A study of Mus musculus with 22 samples.

Results

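The 8 genes described here make, remove or sense extracellular adenosine: Adora2a, Adora2b and Adora3, Entpd1, Nt5e, Cd38, Ada and Adk. They were taken by name from a table of counts for 37620 genes, and all 8 were present and tested in both sets of libraries. The choice was made with earlier results of these data known, so counts of members called are not independent of these data. The table comes from RNA sequencing of lymphocytes sorted from pooled mammary tumours of female PyMT mice of strain C57BL/6, aged 20 to 24 weeks, which develop these tumours because a viral oncogene is expressed in the mammary gland. There are 11 populations with 2 libraries each. The series lists 5 populations first: TCRb+CD8a+NK1.1+ cells (here NK1.1+ CD8 T cells), TCRb+CD8a+PD1+ cells (PD1+ CD8 T cells), TCRb+CD8a+PD1-NK1.1- cells, TCRb+CD8a-NK1.1+ cells and TCR-NK1.1+ cells. The other 6 are ILC1l cells (named as innate lymphoid cells of type 1), cNK cells (conventional natural killer cells), TCRab+ILTC1 and TCRgd+ILTC1 cells (innate-like T cells with an αβ or γδ receptor), TCRb+CD8a+NK1.1- cells and TCRgd+NK1.1- cells. All mice carried tumours, and lymphocytes from tumour-free tissue were not analysed here.

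ATP released by dying or stressed cells is cut outside the cell by CD39, the product of Entpd1, to AMP, and CD73, the product of Nt5e, turns AMP into adenosine. CD38 consumes NAD and can feed the same route through ADP-ribose. Adenosine binds G-protein coupled receptors: those of Adora2a and Adora2b raise cyclic AMP, which restrains T and NK cells, whereas that of Adora3 couples to Gi proteins that lower it. Adenosine deaminase (Ada) converts adenosine to inosine, and adenosine kinase (Adk) returns it to AMP inside the cell.

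Levels are in CPM, counts scaled to the library total, with TMM factors over the 22 libraries. Differences are log2 fold changes ± SE from edgeR's quasi-likelihood test, fitted separately in the 10 libraries of the first set and the 12 of the second. A gene is called where the Benjamini-Hochberg adjusted p over all genes of that fit is under 0.05. Library totals ran from 8696335 to 20602715 counts. Nothing in the labels makes the 2 libraries of a population different animals, and the tumours were pooled, so p-values measure only the spread between these libraries, which may be technical. Fewer expressing cells and less RNA per cell cannot be told apart in such libraries.

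Of the sort markers only Cd3e is given here, with some T-cell RNA in populations named without a T-cell receptor. Trdc, the constant-region gene of the δ chain, was not found by that name among the counts. The γδ labels were thus not checked by it. Cd3e, a chain of the T-cell receptor complex, was at 86.1 and 460 CPM in the ILC1l libraries and 217 and 437 CPM in the TCR-NK1.1+ libraries, but at 0.615 and 6.09 CPM in cNK. The summed level of 16 macrophage and monocyte genes was 7313 and 16556 CPM in the TCRgd+NK1.1- libraries and 98.3 to 1593 CPM in the other 20. The sum of 10 dendritic-cell genes was 11637 and 28923 CPM there, most of it Cd74 (8298 and 23321 CPM), and 101 to 2841 CPM in the other 20. The sum of 16 mammary epithelial genes was 6751 and 4180 CPM in TCR-NK1.1+ libraries and ran from 72.9 to 4669 CPM elsewhere. In 14 libraries, those outside TCRb+CD8a-NK1.1+, TCR-NK1.1+, TCRb+CD8a+NK1.1- and TCRgd+NK1.1- cells, the sum without the cadherin gene Cdh1 was 22.1 to 113 CPM. In the 8 libraries of those 4 populations it was 295 to 6465 CPM without Cdh1, a sum added after the data were seen.

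Promoter sequence is shown for 3 members: Adora3 and Entpd1, the members called among the 5 populations of the first set, and Adora2b, which was near the detection limit. Each is the 250 bases upstream of a RefSeq start on GRCm38.p6, all on the plus strand and outside GENCODE M21 exons. Adora3 lies at chr3:105904171-105904420, Entpd1 (its second listed start) at chr19:40659520-40659769 and Adora2b at chr11:62248734-62248983. Capitals mark the motifs found on either strand.
Adora3: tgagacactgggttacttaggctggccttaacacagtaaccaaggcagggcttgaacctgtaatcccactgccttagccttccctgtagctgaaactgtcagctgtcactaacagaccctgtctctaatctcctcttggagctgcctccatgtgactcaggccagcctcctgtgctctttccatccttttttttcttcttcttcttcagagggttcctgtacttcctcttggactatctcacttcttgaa
Entpd1: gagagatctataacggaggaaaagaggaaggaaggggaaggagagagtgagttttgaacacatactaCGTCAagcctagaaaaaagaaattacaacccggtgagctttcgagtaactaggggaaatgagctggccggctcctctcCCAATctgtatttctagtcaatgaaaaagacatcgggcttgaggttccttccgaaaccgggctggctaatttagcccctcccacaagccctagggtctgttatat
Adora2b: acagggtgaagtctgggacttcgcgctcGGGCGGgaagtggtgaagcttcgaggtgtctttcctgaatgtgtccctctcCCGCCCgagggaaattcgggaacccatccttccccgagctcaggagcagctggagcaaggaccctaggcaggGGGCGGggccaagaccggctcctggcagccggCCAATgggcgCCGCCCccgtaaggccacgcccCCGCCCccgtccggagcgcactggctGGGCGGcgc
The search covered the cyclic AMP response element TGACGTCA, its partial site TGACG, the GC box GGGCGG and the CCAAT box. It also covered the TATA box, spelled TATAAA, the T-box motif TCACACC and the Runx motif TGTGGT, with both strands read for each. The Adora3 window held none of the 7. Entpd1 held 1 partial site and 1 CCAAT, and Adora2b held 6 GC boxes and 1 CCAAT. Of 32851 mouse promoters of this length, 1.55% held the full element, 17.8% the partial site (which lies within it), 32.7% the GC box, 33.8% CCAAT, 12.4% TATAAA, 3.33% the T-box motif and 14.05% the Runx motif. These matches describe letters in the window and were not tested against the levels. Promoters were listed for 7 of the 8 members, and Adora2a had no entry.

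**Figure D1:**
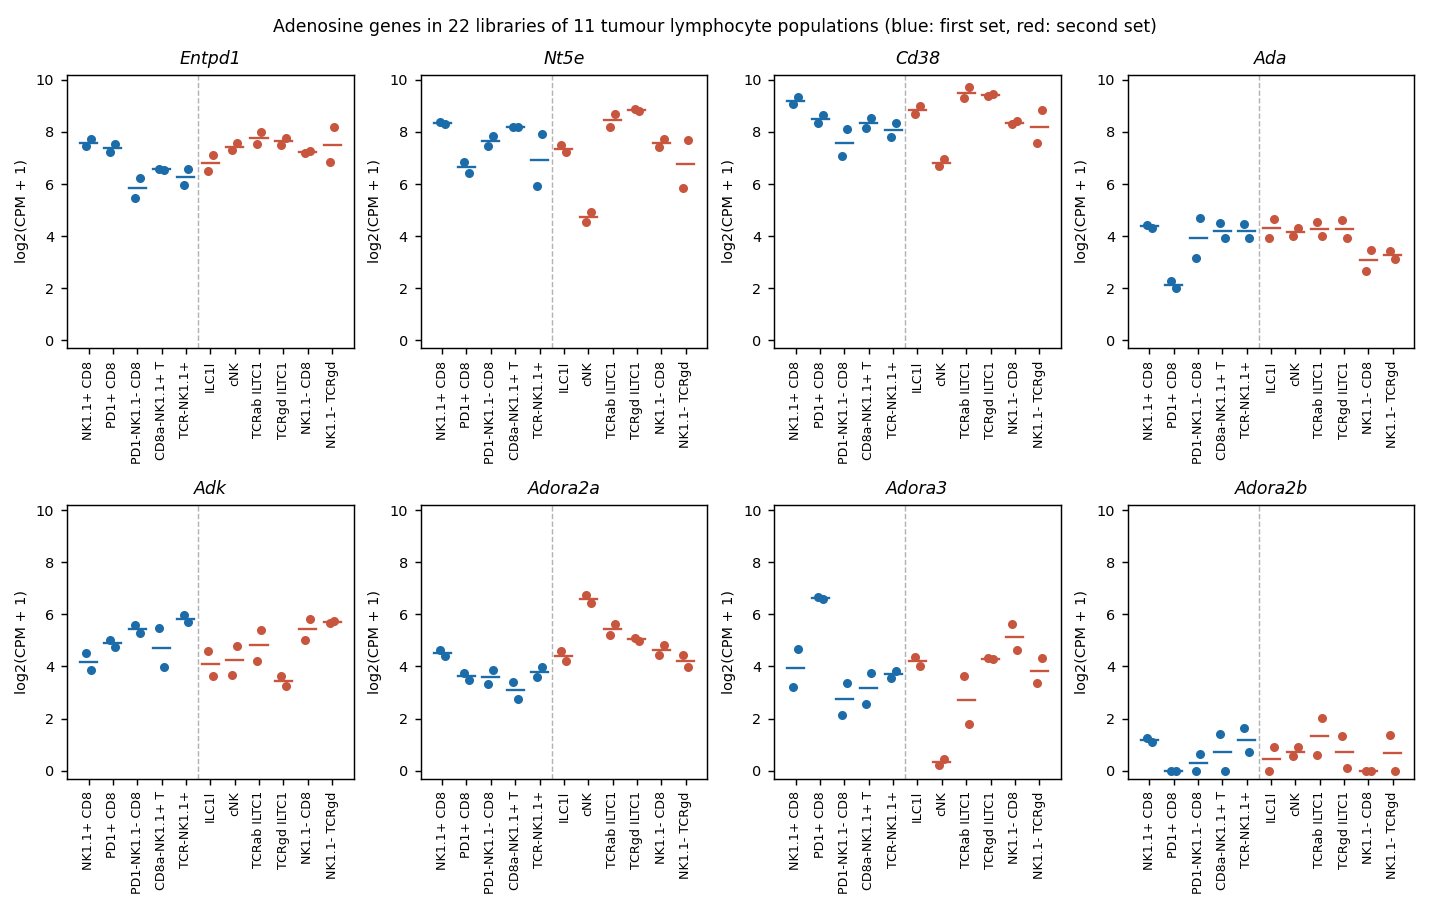
Level of each member, as log2(CPM + 1), in all 22 libraries. Points are libraries, short lines are means of the 2 log2 values, blue marks the first set and red the second. Adora2a peaks in cNK, Adora3 peaks in PD1+ CD8 T cells and is near 0 in cNK, and Adora2b is low throughout, at no more than 3.06 CPM.

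Per kilobase of exon, CD38 RNA was the most abundant of the 8, with a median over libraries of 91.4 CPM per kb. Entpd1 (27.3 CPM per kb) and Nt5e (24.1 CPM per kb) followed, then Ada (7.34), Adora2a (6.66), Adora3 (3.48) and Adk (3.38, all in CPM per kb). Adora2b was lowest at 0.293 CPM per kb. This order was not the same in each population. By mean level per kilobase Cd38 came first in 10 of the 11, but in cNK the first was Adora2a (31.6 CPM per kb), followed by Entpd1 (31.0) and Cd38 (29.0), with Nt5e at 3.00 CPM per kb. Nt5e came second in 6 populations and Entpd1 in 5, and in PD1+ CD8 cells Adora3 (26.2 CPM per kb) stood above Nt5e (11.6 CPM per kb). The highest population mean was 17.9 times the lowest for Nt5e, 12.6 times for Adora2a and 3.75 times for Entpd1, ranges that cross the 2 sets and were not tested. For Adora3 no such fold is given, since its lowest mean rests on a few counts.

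The comparison with most calls among the members was ILC1l against cNK, which sets the innate lymphoid cells against conventional NK cells. Nt5e, Cd38 and Adora3 were higher in ILC1l cells, and Adora2a was higher in cNK cells. These are 4 of 8 members, where 1.02% of all genes tested were called; libraries of the 2 populations did not overlap for 53.3% of all genes. Entpd1, Ada, Adk and Adora2b were not called.

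Adora2a, the gene of the receptor through which adenosine raises cyclic AMP in lymphocytes, was at 107 and 86.6 CPM in the cNK libraries and at 23.4 and 17.3 CPM in the ILC1l libraries. The other second-set libraries held 36.4 and 48.4 CPM (TCRab+ILTC1), 33.6 and 30.7 CPM (TCRgd+ILTC1), 20.7 and 27.0 CPM (TCRb+CD8a+NK1.1-) and 20.5 and 14.8 CPM (TCRgd+NK1.1-). Both cNK libraries lay above all the others, and every first-set library was at or below 23.6 CPM. The share of all genes with such an order was not counted. The difference of ILC1l from cNK was −2.22 ± 0.37 (adjusted p = 0.0234), a 4.66-fold lower level in ILC1l.

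Adora3, the gene of the Gi-coupled receptor, had 2 and 4 counts in the cNK libraries (0.154 and 0.353 CPM) and 255 and 191 counts in the ILC1l libraries (19.6 and 15.3 CPM). The cNK values are close to what 3 counts give in those libraries, 0.228 and 0.251 CPM by library totals. The ratio of pooled levels, ILC1l over cNK, was 71.0, with an exact 95% counting interval from 32.4 to 195, which covers counting error only. The fitted difference was 6.10 ± 1.00 (adjusted p = 0.0211). Adora3 shares 779 exon bases on the same strand with Tmigd3 in GENCODE M21, so reads there may not be assigned to 1 gene; Tmigd3 had 223 counts over all libraries.

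Nt5e, the gene of the enzyme that forms adenosine, was at 22.1 and 29.5 CPM in cNK and 181 and 147 CPM in ILC1l, a difference of 2.70 ± 0.53 (adjusted p = 0.0484). Cd38 was at 102 and 123 CPM in cNK and 413 and 507 CPM in ILC1l (2.06 ± 0.40, adjusted p = 0.0451). Entpd1, whose product acts upstream of CD73, was at 156 and 190 CPM in cNK and 90.7 and 137 CPM in ILC1l. Its difference was −0.57 ± 0.43, with a 95% interval from −1.53 to 0.39 (adjusted p = 0.678). By library values alone, the genes of the CD39 and CD73 route did not share 1 order in these populations. The cNK libraries held the lowest Nt5e values of the 22 and Entpd1 values above both ILC1l libraries. The share of all genes lowest in cNK among the 22 was not counted. The Entpd1 difference was not called, and the differences of the 2 genes were not compared by a test.

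Each of the 4 calls was lost when any 1 of the 2 ILC1l or 2 cNK libraries was left out, with adjusted p from 0.139 to 0.314 for Adora2a, 0.0866 to 0.299 for Adora3, 0.198 to 0.446 for Nt5e and 0.148 to 0.429 for Cd38. Without ILC1l replicate 2, the library with the higher Cd3e of the 2, the adjusted p was 0.314, 0.0866, 0.198 and 0.283 in that order. Adora2a was also lost without either TCRgd+ILTC1 library (0.0575 and 0.0549), Nt5e and Cd38 without any library of TCRab+ILTC1, TCRgd+ILTC1 or TCRb+CD8a+NK1.1- (0.0530 to 0.0922), and Nt5e with DESeq2 size factors (0.0507).

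cNK cells were then set against each of the 4 remaining populations of the second set, pairs added after the data were seen. These pairs share the same 2 cNK libraries, so their results are not independent. Adora3 and Nt5e were lower in cNK in all 4, Cd38 was lower than in both ILTC1 populations, and Adora2a was higher than in both NK1.1- populations. The share of all tested genes called was 1.62% (TCRab+ILTC1), 1.11% (TCRgd+ILTC1), 1.74% (TCRb+CD8a+NK1.1-) and 2.73% (TCRgd+NK1.1-), and 3 of 8 members were called in each.

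Among these populations, Nt5e levels were highest in ILTC1 cells, at 473 and 451 CPM in TCRgd+ILTC1 and 294 and 413 CPM in TCRab+ILTC1. It was at 172 and 209 CPM in TCRb+CD8a+NK1.1- and at 57.1 and 205 CPM in TCRgd+NK1.1- libraries. Every library of the other 5 populations lay above both cNK libraries, an order whose share over all genes was not counted. cNK differed by −4.19 ± 0.56 from TCRgd+ILTC1 (adjusted p = 0.00621), −3.81 ± 0.55 from TCRab+ILTC1 (adjusted p = 0.00849), −2.95 ± 0.53 from TCRb+CD8a+NK1.1- (adjusted p = 0.0259) and −2.43 ± 0.52 from TCRgd+NK1.1- cells (adjusted p = 0.0412). The size of the last rests on which TCRgd+NK1.1- library is used: it was −3.09 without replicate 1 and −1.25 without replicate 2.

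Cd38 had a similar order, with 627 and 844 CPM in TCRab+ILTC1 and 670 and 703 CPM in TCRgd+ILTC1. It was at 311 and 341 CPM in TCRb+CD8a+NK1.1- and at 188 and 458 CPM in TCRgd+NK1.1- libraries. cNK differed by −2.74 ± 0.41 from TCRab+ILTC1 (adjusted p = 0.00959) and −2.64 ± 0.41 from TCRgd+ILTC1 (adjusted p = 0.0138). Against TCRb+CD8a+NK1.1- the difference was −1.60 ± 0.39 (95% interval −2.47 to −0.72, adjusted p = 0.0938). Against TCRgd+NK1.1- it was −1.59 ± 0.39 (−2.46 to −0.71, adjusted p = 0.0661), and neither was called. Among the alternatives other than leaving out 1 library, the first was called in 6 of 7 and the second in 5 of 6. Most fits that left out 1 library called neither. Across the 22 libraries log2 levels of Nt5e and Cd38 had a Pearson r of 0.81, which was 0.65 in the 20 libraries without cNK, a description of libraries that share populations and scaling.

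For Adora3 the other libraries held 11.3 and 2.46 CPM (TCRab+ILTC1), 19.1 and 18.3 CPM (TCRgd+ILTC1), 48.5 and 23.6 CPM (TCRb+CD8a+NK1.1-) and 9.25 and 19.0 CPM (TCRgd+NK1.1-). All lay above cNK, an order whose share over all genes was not counted. The fitted difference of cNK ran from −7.17 ± 1.04 against TCRb+CD8a+NK1.1- (adjusted p = 0.00774) to −4.77 ± 0.96 against TCRab+ILTC1 (adjusted p = 0.0418). The last was −3.29 without TCRab+ILTC1 replicate 1 and −5.48 without replicate 2. Without cNK replicate 2 the fitted Adora3 differences grew to between −5.44 and −7.84 in the 4 pairs, and that of ILC1l from cNK to 6.77. For Adora2a, cNK differed by 2.41 ± 0.38 from TCRgd+NK1.1- (adjusted p = 0.00956) and 1.95 ± 0.37 from TCRb+CD8a+NK1.1- (adjusted p = 0.0300). Against TCRab+ILTC1 the Adora2a difference was 1.16 ± 0.36 (adjusted p = 0.209) and against TCRgd+ILTC1 1.56 ± 0.36 (adjusted p = 0.1005), neither called.

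Each of these 12 calls was lost without either cNK library (adjusted p from 0.0574 to 0.390), and none of the 12 was kept in every fit that left out 1 library. Without other libraries, Adora2a against TCRb+CD8a+NK1.1- was lost for any library of ILC1l, TCRgd+ILTC1 or TCRb+CD8a+NK1.1- (0.0579 to 0.190) and with library totals alone (0.0560). Adora3 against TCRab+ILTC1 was lost without the same libraries or TCRab+ILTC1 replicate 1 (0.0522 to 0.0792), and Nt5e against TCRgd+NK1.1- without the same libraries or TCRgd+NK1.1- replicate 2 (0.0609 to 0.0767). Nt5e against TCRb+CD8a+NK1.1- was lost without ILC1l replicate 1 (0.0501) or either library of that population (0.0618 and 0.131), Cd38 against TCRab+ILTC1 without TCRab+ILTC1 replicate 2 (0.0552), and Adora3 and Cd38 against TCRgd+ILTC1 without either library of it (0.0651 to 0.0895). Sums of 11 B-cell and plasma-cell genes were 2734 and 1605 CPM in cNK. They were 189 to 1760 CPM in the other 20 libraries, so the ranges overlap. In cNK the light chain gene Igkc was at 1763 and 911 CPM and the B-cell gene Ms4a1 at 10.5 and 5.47 CPM. Summed levels of 10 mast-cell and basophil genes were 486 and 624 CPM in cNK and 2.70 to 170 CPM elsewhere. Most of this was Cma1 (388 and 510 CPM), while the mast-cell genes Cpa3 (0 and 0.353 CPM) and Ms4a2 (0.154 and 0 CPM) were at or near 0. The part of B-lineage RNA in the member differences was not tested.

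**Figure D2:**
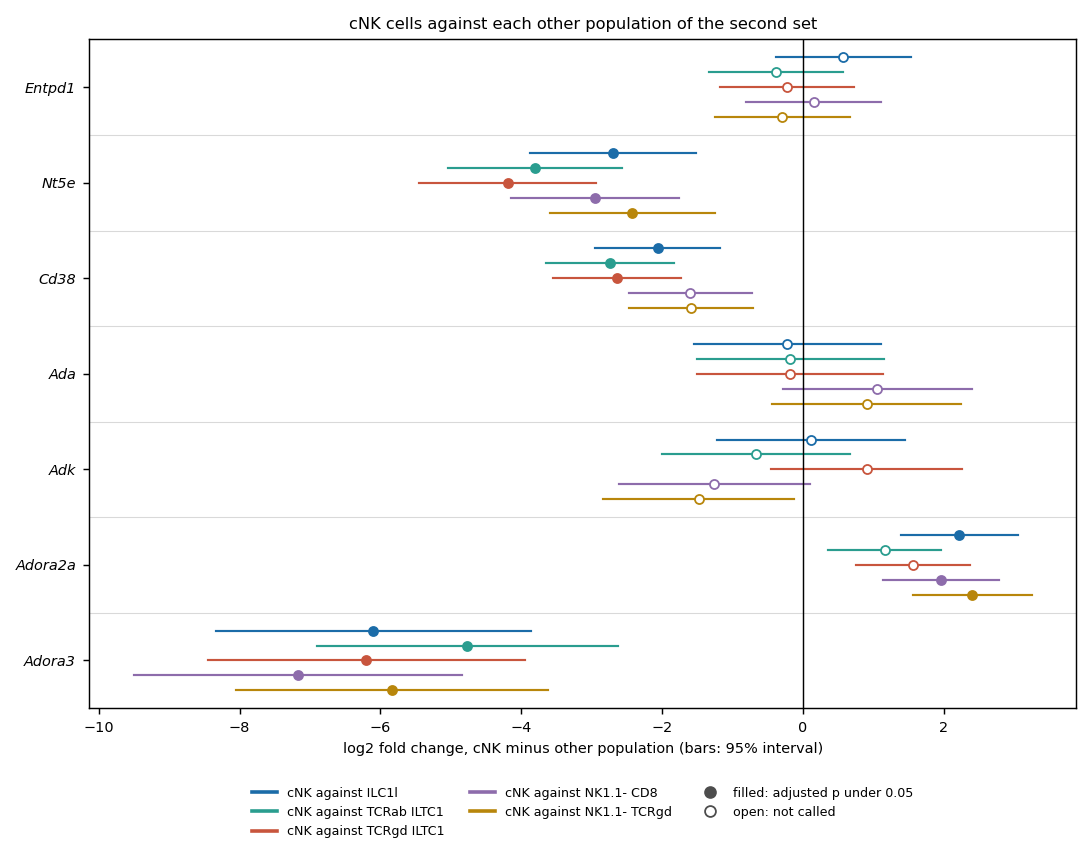
Log2 fold change of cNK against each other population of the second set for 7 members, with 95% intervals. Filled points are called (adjusted p under 0.05). Nt5e and Adora3 are lower in cNK in all 5 pairs, Cd38 is called in 3 and Adora2a in 3; Adora2b is left out because its counts were too low.

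The test of any difference among the 6 populations called Adora2a (adjusted p = 0.0167), Nt5e (adjusted p = 0.0199), Cd38 (adjusted p = 0.0287) and Adora3 (adjusted p = 0.0340), 4 of 8 members against 4.76% of all genes. With both cNK libraries left out none of the 4 was called: adjusted p was 0.452 for Adora2a, 0.279 for Nt5e, 0.331 for Cd38 and 0.505 for Adora3. Leaving out either cNK library alone also ended all 4 (0.0884 to 0.185). Adora2a was lost without ILC1l replicate 2 (0.0535), Nt5e without either TCRgd+ILTC1 library (0.0546 and 0.0568) or TCRb+CD8a+NK1.1- replicate 2 (0.0507), and Adora3 and Cd38 without any library of ILC1l, TCRgd+ILTC1 or TCRb+CD8a+NK1.1- (0.0552 to 0.0859). By the same test of all 6 populations Entpd1 (0.628), Ada (0.507), Adk (0.174) and Adora2b (0.721, all adjusted p) were not called.

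ILTC1 cells were compared with NK1.1- T cells of the same receptor lineage, the question being what sets innate-like T cells apart from conventional ones. No member was called in either lineage; 0.523% of all genes were called in the αβ lineage and 1.59% in the γδ lineage. At an unadjusted p under 0.05, 2327 and 2920 genes passed in the 2 comparisons. For Cd38 the differences were 1.14 ± 0.39 in the αβ lineage (95% interval 0.28 to 2.00, adjusted p = 0.230) and 1.05 ± 0.39 in the γδ lineage (0.19 to 1.91, adjusted p = 0.203). For Nt5e they were 0.86 ± 0.50 (−0.25 to 1.97, adjusted p = 0.476) and 1.77 ± 0.51 (0.63 to 2.90, adjusted p = 0.116).

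Adk, the kinase that returns adenosine to AMP, was at 11.5 and 8.50 CPM in TCRgd+ILTC1 and 49.8 and 53.0 CPM in TCRgd+NK1.1- libraries. These did not overlap, as was so for 42.2% of all genes in this comparison, and the difference of −2.39 ± 0.63 was not called (adjusted p = 0.0922). Sums of 9 erythroid and platelet genes were 0.661 and 0 CPM in TCRgd+ILTC1 and 296 and 120 CPM in TCRgd+NK1.1- libraries, and those of 11 neutrophil and eosinophil genes 16.3 and 0 CPM against 157 and 117 CPM. Epithelial sums without Cdh1 were 39.5 and 30.5 CPM against 3692 and 1893 CPM, and the macrophage and dendritic sums given above were also high in TCRgd+NK1.1-. Over the 22 libraries log2 Adk levels had a Pearson r of 0.71 with the erythroid and platelet sum. With the neutrophil and eosinophil sum r was 0.62, and these were the highest of the 8 marker lists. It was 0.49 for stromal and endothelial, 0.47 for epithelial (with Cdh1) and 0.40 for macrophage and monocyte genes. For dendritic, mast-cell and basophil, and B-cell and plasma-cell genes it was 0.32, 0.05 and −0.16. The libraries share populations and scaling. The part of RNA from these cells in the Adk difference was not tested. In the αβ lineage Adk libraries overlapped, at 17.7 and 41.6 CPM in TCRab+ILTC1 and 31.3 and 55.8 CPM in TCRb+CD8a+NK1.1-. Erythroid and platelet sums were 0.830 and 0 CPM in TCRab+ILTC1 and 55.1 and 26.1 CPM in TCRb+CD8a+NK1.1- libraries. Neutrophil and eosinophil sums were 1.22 and 0 CPM against 15.3 and 14.2 CPM. Ada, the deaminase, was at 22.5 and 14.99 CPM and at 23.5 and 14.2 CPM in the αβ and γδ ILTC1 libraries. In TCRb+CD8a+NK1.1- it was at 5.40 and 10.1 CPM and in TCRgd+NK1.1- at 9.78 and 7.67 CPM, and the differences of 1.24 ± 0.60 and 1.09 ± 0.60 were not called (adjusted p = 0.398 and 0.385). The difference between the 2 lineages was tested as an interaction and no member was called, with 0.0535% of all genes called; Adora3 was closest at 2.77 ± 1.11 (adjusted p = 0.497).

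Entpd1 in the TCRgd+NK1.1- libraries was 113 CPM in replicate 1 and 291 CPM in replicate 2. The macrophage sums there were 7313 and 16556 CPM the dendritic sums 11637 and 28923 CPM, and the macrophage gene Adgre1 stood at 107 and 621 CPM. Nt5e (57.1 and 205 CPM) and Cd38 (188 and 458 CPM) were also higher in replicate 2. The part of macrophage or dendritic-cell RNA in these levels was not tested.

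No member was called between TCRab+ILTC1 and ILC1l or between TCRgd+ILTC1 and TCRab+ILTC1. In neither comparison was any gene called by edgeR (0%), while 1072 and 570 genes had an unadjusted p under 0.05, and DESeq2 called 194 and 63 genes. The Nt5e difference was 1.11 ± 0.50 (95% interval −0.01 to 2.23) in the first and 0.38 ± 0.49 (−0.72 to 1.49) in the second.

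In the first set the members called were Adora3 (adjusted p = 0.0122) and Entpd1 (adjusted p = 0.0408) by the test of any difference among the 5 populations, 2 of 8 against 6.10% of all genes. With both PD1+ CD8 libraries left out, neither was called (adjusted p = 0.727 and 0.108). Leaving out either PD1+ CD8 library alone also ended the Adora3 call (0.0711 and 0.0614). The Entpd1 call was lost without any NK1.1+ or PD1+ CD8 library (0.0932 to 0.157), without TCRb+CD8a+PD1-NK1.1- replicate 1 (0.0998) or TCR-NK1.1+ replicate 1 (0.0660), with library totals alone (0.0799) and in 1 fit of all 22 libraries (0.0502).

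Adora3 was at 101 and 94.8 CPM in the PD1+ CD8 libraries, the highest values of the 22. The share of all genes highest in these 2 libraries was not counted. NK1.1+ CD8 libraries held 8.36 and 24.6 CPM, TCRb+CD8a+PD1-NK1.1- libraries 3.36 and 9.34 CPM, TCRb+CD8a-NK1.1+ libraries 4.92 and 12.6 CPM and TCR-NK1.1+ libraries 10.8 and 13.4 CPM. The next highest value in any population was 48.5 CPM, in a library of TCRb+CD8a+NK1.1- cells, whose other library held 23.6 CPM. PD1+ CD8 cells were above TCRb+CD8a-NK1.1+ cells by 3.46 ± 0.68 (adjusted p = 0.0307) and above TCR-NK1.1+ cells by 3.01 ± 0.66 (adjusted p = 0.0305), both pairs added after the data were seen, in which 2.34% and 5.66% of all genes were called. Their difference from TCRb+CD8a+PD1-NK1.1- cells was 3.94 ± 0.69 (adjusted p = 0.0475). It was 4.86 without replicate 2 of those cells, and that from TCRb+CD8a-NK1.1+ cells was 4.23 without their replicate 2. NK1.1+ CD8 cells were not called against them, at −2.56 ± 0.65 (95% interval −4.01 to −1.11, adjusted p = 0.0976). These 4 pairs share the PD1+ CD8 libraries.

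In the pair of PD1+ CD8 and TCRb+CD8a+PD1-NK1.1- cells 1 of 8 members was called, against 0.451% of all genes. This Adora3 call was kept in 2 of 10 fits that left out 1 library, those without a TCRb+CD8a-NK1.1+ library, with adjusted p up to 0.333, and it was lost without the TCR-NK1.1+ population (0.0704), with library totals alone (0.0610) and in 1 fit of all 22 libraries (0.0543). The calls against TCRb+CD8a-NK1.1+ and TCR-NK1.1+ cells were lost without either PD1+ CD8 library (0.118 to 0.147), without either TCR-NK1.1+ library (0.0564 to 0.211) and, for the first, without TCRb+CD8a-NK1.1+ replicate 1 (0.0762).

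Entpd1, the gene of CD39, was at 173 and 213 CPM in NK1.1+ CD8 libraries and at 42.9 and 74.8 CPM in TCRb+CD8a+PD1-NK1.1- libraries. PD1+ CD8 libraries held 150 and 182 CPM, TCRb+CD8a-NK1.1+ libraries 94.7 and 92.6 CPM and TCR-NK1.1+ libraries 60.7 and 94.7 CPM. Levels in both NK1.1+ and PD1+ CD8 libraries were thus above those of the 6 other libraries of the set, a split whose share over all genes was not counted. NK1.1+ CD8 against TCRb+CD8a+PD1-NK1.1- cells gave 1.72 ± 0.35 (adjusted p = 0.0398), 1 of 8 members called against 1.78% of all genes. PD1+ CD8 against the same cells gave 1.496 ± 0.34 (95% interval 0.73 to 2.26, adjusted p = 0.131), not called, and NK1.1+ against PD1+ CD8 cells 0.22 ± 0.34 (−0.53 to 0.97, adjusted p = 0.946).

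The Entpd1 call was lost when any of 6 libraries was left out, namely those of NK1.1+ CD8 (adjusted p = 0.170 and 0.285), PD1+ CD8 (0.0736 and 0.0725) and TCRb+CD8a+PD1-NK1.1- cells (0.318 and 0.0710). It was also lost with library totals alone (0.0686) and in 1 fit of all 22 libraries (0.0567).

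Ada was lowest in PD1+ CD8 cells, at 3.81 and 2.99 CPM. It was at 20.4 and 19.1 CPM in NK1.1+ CD8, 7.94 and 25.1 CPM in TCRb+CD8a+PD1-NK1.1-, 21.5 and 14.1 CPM in TCRb+CD8a-NK1.1+ and 21.1 and 14.4 CPM in TCR-NK1.1+ libraries. Both PD1+ CD8 libraries lay below all other 20 libraries of the series, an order whose share over all genes was not counted. For the pair of PD1+ CD8 and TCR-NK1.1+ cells alone, 55.7% of all genes had libraries that did not overlap in either direction. PD1+ CD8 against TCR-NK1.1+ cells, a pair added after the data were seen in which 5.66% of all genes and 2 of 8 members were called, gave −2.38 ± 0.59 (adjusted p = 0.0460), lost without any library of PD1+ CD8, TCR-NK1.1+ or NK1.1+ CD8 cells (0.0632 to 0.255) and with library totals alone (0.0555). NK1.1+ against PD1+ CD8 cells gave 2.54 ± 0.59 (95% interval 1.22 to 3.86, adjusted p = 0.0682), and 0 of 8 members were called there against 2.11% of all genes.

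**Figure D3:**
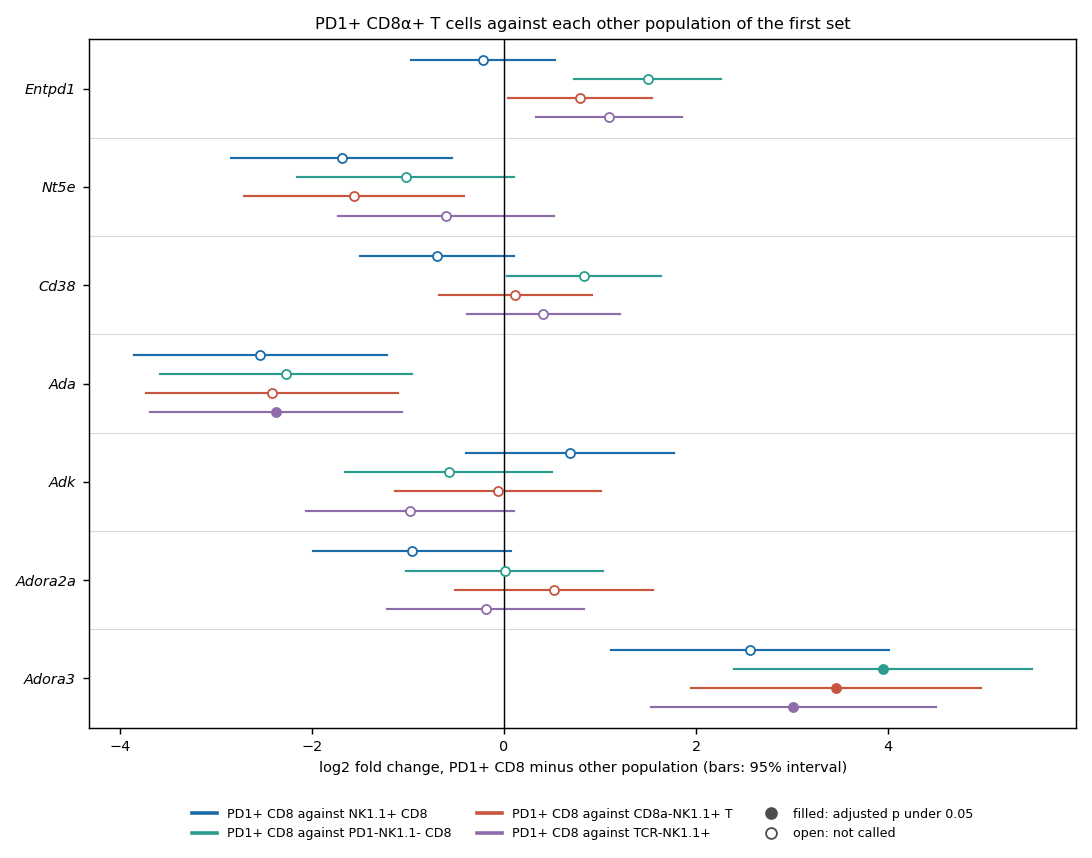
Log2 fold change of PD1+ CD8 T cells against each other population of the first set for 7 members, with 95% intervals. Filled points are called. Adora3 is called in 3 of the 4 pairs and Ada in 1, and the remaining points are open; Adora2b is left out because its counts were too low.

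The remaining members were not called in any first-set pair. Nt5e was at 328 and 315 CPM in NK1.1+ CD8, 289 and 288 CPM in TCRb+CD8a-NK1.1+, 177 and 230 CPM in TCRb+CD8a+PD1-NK1.1- and 114 and 85.9 CPM in PD1+ CD8 libraries. In the TCR-NK1.1+ libraries the replicates of Nt5e lay far apart, at 60.4 and 244 CPM. NK1.1+ against PD1+ CD8 cells gave 1.69 ± 0.52 for Nt5e (adjusted p = 0.192). Cd38 was at 535 and 639 CPM in NK1.1+ CD8 and 132 and 274 CPM in TCRb+CD8a+PD1-NK1.1- libraries (1.53 ± 0.37, adjusted p = 0.0834).

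Adk was at 61.7 and 51.0 CPM in TCR-NK1.1+ and 21.8 and 13.6 CPM in NK1.1+ CD8 libraries, a difference for NK1.1+ CD8 of −1.67 ± 0.49 (adjusted p = 0.149). The epithelial sums without Cdh1 were 6465 and 3607 CPM in those TCR-NK1.1+ libraries and 77.7 and 59.1 CPM in NK1.1+ CD8. The erythroid and platelet sums were 50.5 and 76.0 CPM against 3.05 and 2.26 CPM. In TCRb+CD8a+PD1-NK1.1- libraries Adk was at 47.4 and 38.0 CPM. Epithelial sums without Cdh1 were 22.1 and 38.6 CPM there, and erythroid and platelet sums 6.55 and 2.18 CPM. TCRb+CD8a-NK1.1+ libraries held 43.1 and 14.7 CPM of Adk beside such epithelial sums of 4023 and 295 CPM. PD1+ CD8 libraries held 31.3 and 25.9 CPM of Adk beside 36.3 and 42.8 CPM. The part of epithelial or erythroid RNA in these Adk levels was not tested. Adora2a was at 23.6 and 20.3 CPM in NK1.1+ CD8 libraries and at 5.82 to 14.7 CPM in the other 8 of the first set. Its difference from TCRb+CD8a-NK1.1+ cells was 1.48 ± 0.47 (adjusted p = 0.299). The comparisons of NK1.1+ CD8 with TCR-NK1.1+ and with TCRb+CD8a-NK1.1+ cells called no member, where 1.54% and 0.337% of all genes were called.

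Adora2b, the gene of the lower-affinity receptor that also raises cyclic AMP, was at 0 to 3.06 CPM. It had 0 counts in both PD1+ CD8 and both TCRb+CD8a+NK1.1- libraries and at most 41 counts in any library. A count of 0 there allows up to 0.190 and 0.260 CPM in PD1+ CD8 and 0.221 and 0.260 CPM in TCRb+CD8a+NK1.1- libraries, the level of 3 counts. Several populations held 1 library with counts and 1 without, such as TCRb+CD8a-NK1.1+ (25 and 0 counts). No Adora2b difference was called in the 25 pairs of populations. NK1.1+ CD8 libraries held 16 and 13 counts, where both PD1+ CD8 libraries held 0. PD1+ CD8 differed by −7.04 ± 3.06 from NK1.1+ CD8 cells (95% interval −13.97 to −0.11, adjusted p = 0.447). From TCR-NK1.1+ cells (28 and 9 counts) the difference was −7.17 ± 3.07 (−14.11 to −0.22, adjusted p = 0.207). These wide intervals, unadjusted for the number of genes, excluded 0. Those of PD1+ CD8 against the other populations of the set included 0.

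Genes around the members in the pathway were read from 5 lists. In the first set, by the test of any difference, 4 of 12 tested genes for other surface enzymes were called, 1 of 19 for cyclic AMP signalling, 1 of 6 nucleoside transporters, 1 of 24 for purine metabolism in the cell and 2 of 11 for ATP receptors and release. In the second set the counts were 2 of 12, 0 of 21, 0 of 6, 2 of 25 and 1 of 11. Background shares were 6.10% and 4.76%.

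Dpp4 encodes CD26, a surface peptidase of lymphocytes. It was at 212 and 162 CPM in TCRb+CD8a+PD1-NK1.1- and 95.0 and 144 CPM in PD1+ CD8 libraries, against 25.9 and 23.3 CPM in NK1.1+ CD8 libraries. NK1.1+ CD8 cells were lower than both (−2.92 ± 0.33, adjusted p = 0.00290, and −2.27 ± 0.32, adjusted p = 0.00585). It was lowest in ILC1l (1.92 and 3.93 CPM) and cNK (4.92 and 5.91 CPM) libraries.

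Xdh encodes xanthine dehydrogenase, which degrades the hypoxanthine that follows from inosine. Its level was 287 and 406 CPM in cNK and 11.5 to 79.1 CPM in the other 20 libraries, and ILC1l differed from cNK by −3.54 ± 0.39 (adjusted p = 0.00291).

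P2rx7 encodes an ATP-gated channel of lymphocytes. It was at 2.88 and 1.31 CPM in PD1+ CD8, 46.5 and 32.1 CPM in NK1.1+ CD8 and 15.5 and 31.8 CPM in TCRb+CD8a+PD1-NK1.1- libraries. PD1+ CD8 cells were lower than TCRb+CD8a+PD1-NK1.1- cells (−3.47 ± 0.56, adjusted p = 0.0310), and NK1.1+ CD8 cells were higher than PD1+ CD8 cells (4.21 ± 0.58, adjusted p = 0.00531). Without PD1+ CD8 replicate 1 these P2rx7 differences were −4.17 and 4.91, and without TCRb+CD8a+PD1-NK1.1- replicate 2 the former was −2.86. Of the cyclic AMP genes, only the phosphodiesterase gene Pde4a was called by the test over the first set, at 67.1 and 67.9 CPM in NK1.1+ CD8 and 8.68 and 16.4 CPM in TCRb+CD8a+PD1-NK1.1- libraries (2.43 ± 0.51, adjusted p = 0.0450).

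In the pairs above, leaving out 1 of the 2 NK1.1+ CD8 libraries ended both Dpp4 calls (adjusted p from 0.0562 to 0.0919), as did PD1+ CD8 replicate 2 for the pair with PD1+ CD8 (0.0567), while the test of any difference called Dpp4 in all 22 fits without 1 library. The Xdh call was lost without ILC1l replicate 2 (0.0515). P2rx7 in NK1.1+ against PD1+ CD8 cells was lost without NK1.1+ CD8 replicate 1 (0.0502) or PD1+ CD8 replicate 2 (0.0586). Against TCRb+CD8a+PD1-NK1.1- cells it was lost without any CD8 library of the set (0.0593 to 0.270), and Pde4a was lost without any library of the set but the pair of TCRb+CD8a-NK1.1+ (0.0569 to 0.349); library totals alone (0.0509 and 0.0679) and 1 fit of 22 libraries (0.0793 and 0.0512) also ended these calls for P2rx7 and Pde4a.

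A further 4 genes were called by the test of any difference in the first set. Adssl1, an enzyme of AMP synthesis, was at 10.4 and 14.4 CPM in NK1.1+ CD8 libraries and 1.80 and 1.56 CPM in TCRb+CD8a+PD1-NK1.1- libraries. P2ry14, a receptor for UDP-sugars, was at 47.2 and 41.4 CPM in TCR-NK1.1+ libraries and 2.96 to 13.5 CPM in the other 8 of the set. Enpp2, which encodes autotaxin, was at 31.2 and 19.2 CPM in PD1+ CD8 libraries and at most 2.54 CPM in the others of the set, and Art2b, which encodes a surface ADP-ribosyltransferase that uses NAD, was at 57.5 and 10.3 CPM in TCRb+CD8a+PD1-NK1.1- libraries. Each of these calls was lost without 1 or more libraries, with adjusted p up to 0.169 for Adssl1, 0.175 for P2ry14, 0.207 for Enpp2 and 0.190 for Art2b.

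Levels of other called genes are given beside the marker sums of other cells. Enpp3, an ectonucleotidase, and Slc28a3, a nucleoside transporter, were at 8.70 to 49.6 CPM and 8.05 to 40.5 CPM in the 8 libraries of TCRb+CD8a-NK1.1+, TCR-NK1.1+, TCRb+CD8a+NK1.1- and TCRgd+NK1.1- cells and at no more than 0.736 and 0.921 CPM in the other 14. This split was seen in the data, and the share of all genes that follow it was not counted. The epithelial sum was 1059 to 6751 CPM in those 8 libraries and 72.9 to 1246 CPM in the other 14, ranges that overlap through Cdh1 (245 to 764 CPM and 13.2 to 1206 CPM). Without Cdh1, a sum added after the data were seen, they were 295 to 6465 CPM and 22.1 to 113 CPM and did not overlap. P2rx4, an ATP-gated channel, was at 73.8 and 119 CPM in TCRgd+NK1.1- libraries, with the macrophage and dendritic sums given above, and lower in TCRgd+ILTC1 (−3.38 ± 0.67, adjusted p = 0.0407), a call lost without 1 library of ILC1l, cNK or TCRgd+ILTC1 or without TCRgd+NK1.1- replicate 2 (0.0607 to 0.289) and in 1 fit of 22 libraries (0.0553). The part of epithelial, macrophage and dendritic-cell RNA in these was not tested.

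**Figure D4:**
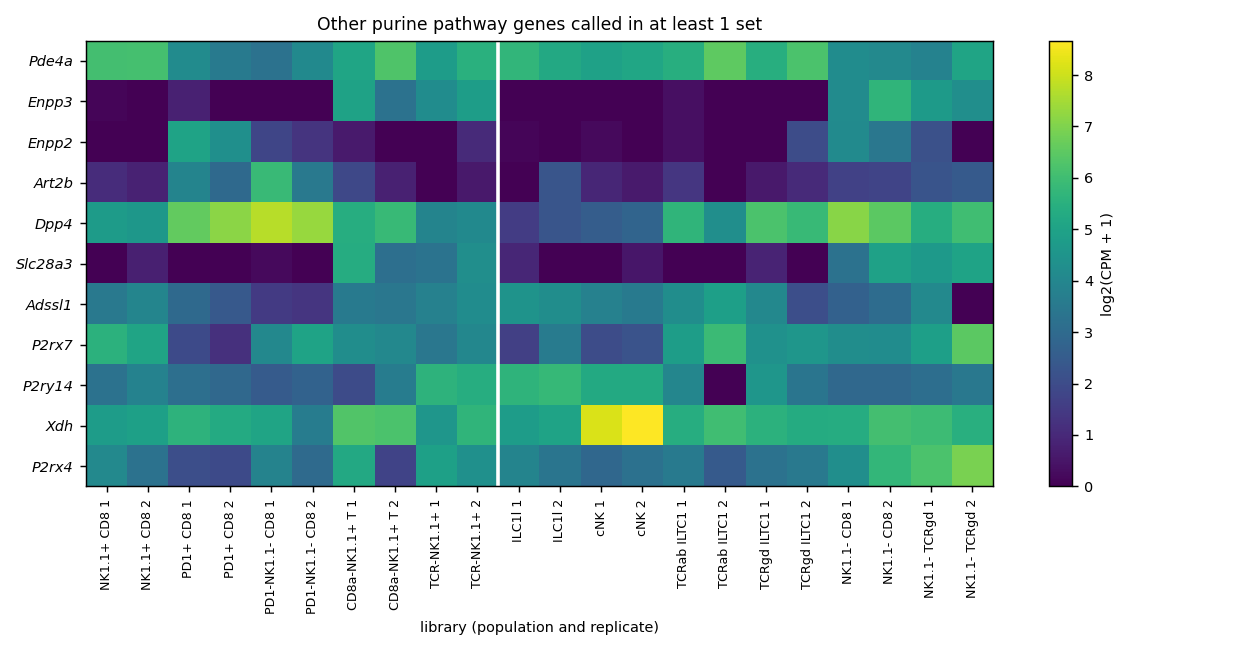
Level, as log2(CPM + 1), of 11 other pathway genes called by the test of any difference in at least 1 set, in all 22 libraries; the white line divides the sets. Xdh is brightest in cNK, Dpp4 is dimmest in ILC1l and cNK, and Enpp3 and Slc28a3 are near 0 outside the 8 libraries of 4 populations.

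The genes whose log2 levels were most like a member over the 22 libraries, by Pearson r among 10250 genes with a population mean of at least 10 CPM, are given as a description. Adora2a was most like Mta2 (0.90), Plek (0.84) and Dnmt1 (0.82), and Adora3 was most like Mdfic (0.83), Ikzf4 (0.81) and Glrx (0.80). Nt5e was most like Tnfsf8 (0.91), Apol7e (0.91) and Adgrg5 (0.90), and Cd38 was most like Abi3 (0.93), Abcb9 (0.92) and Apol7e (0.90). Entpd1 was most like Hip1 (0.80), Arel1 (0.79) and Ccdc50 (0.78). Ada was most like Klra9 (0.87), a member of the near-identical Ly49 family, Fcer1g (0.86) and Clnk (0.86), and Adk was most like B3gnt3 (0.85), Sept10 (0.81) and Pqlc1 (0.80). Spearman's rho differed from r by at least 0.1 in 7 of these 21 pairs and was lowest for Ada and Clnk, at 0.58.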

How the data were processed

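The 22 libraries are bulk RNA sequencing of sorted lymphocytes. The deposited values are whole-number read counts per gene; BWA 0.7.5a, Picard and HTSeq, and the builds mm9 and NCBIM37, are named per the submitters' processing notes, without stated roles. The labels and headers used here do not state a strand setting for the counting. Of 37620 Ensembl IDs, 32897 had a symbol, holding 99.02% of counts, and 3 symbols were shared by several IDs. Samples were grouped by their labels. The series lists 5 populations and then 6, and each set was fitted alone with edgeR 4.0.16 (R 4.3.3, limma 3.58.1): TMM, filterByExpr, quasi-likelihood tests and Benjamini-Hochberg adjustment over 15727 and 16828 genes, without a block. A member's SE is the fold change over the root of F. CPM used TMM over the 22 libraries, and correlations used log2(CPM + 1). The fits were tested on simulated data. Python 3.11.15, pandas 2.3.3 and matplotlib 3.10.9 made the tables and figures.

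All 8 members are named. Of each pathway list, up to 4 genes called by the test of any difference are named, by lowest adjusted p and with a population at 10 CPM or more; 1 such gene is not reported here. For each member reaching 10 CPM, the 3 genes of highest Pearson r are named. Members and lists were chosen with earlier results of these data known, and 15 of the 25 pairs of populations were added after seeing the data. Alternatives were DESeq2 size factors, library totals alone, no filter, DESeq2 1.42.0, a replicate block, 1 fit of all libraries, and leaving out libraries or populations. A depth of 8696335 to 20602715 counts makes 3 counts 0.146 to 0.345 CPM. The interval of the Adora3 count ratio and the levels of 3 counts cover counting error only; other 95% intervals come from the edgeR fits and rest on the spread between libraries.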

Additional observations from a re-analysis of the deposited data

How the results depend on the processing

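No direction of a called or printed member difference reversed under the alternatives run, and other member differences were not checked for this. Of 27 called member results, 15 kept their call in every alternative other than leaving out 1 library, and 0 in every fit that left out 1 library. Of 39 printed member results that were not called, 22 were called under at least 1 alternative.

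Counts of all genes called moved more, and the cause was not tested. They are given in the order first set any difference (959 genes), NK1.1+ CD8 against TCRb+CD8a+PD1-NK1.1- (280), against PD1+ CD8 (332), PD1+ CD8 against TCRb+CD8a+PD1-NK1.1- (71), NK1.1+ CD8 against TCR-NK1.1+ (242) and against TCRb+CD8a-NK1.1+ (53), second set any difference (801), ILC1l against cNK (171), ILTC1 against NK1.1- in the αβ (88) and γδ (268) lineage, TCRab+ILTC1 against ILC1l (0), TCRgd+ILTC1 against TCRab+ILTC1 (0) and the difference of lineages (9). Without a filter on low counts they were 3099, 747, 838, 397, 1452, 906, 3675, 787, 1244, 1786, 344, 154 and 479. With DESeq2 they were 2461, 773, 818, 368, 1069, 568, 2824, 827, 1179, 1697, 194, 63 and 349. In 1 fit over 22 libraries the 5 pairs of the first set fell to 168, 221, 45, 72 and 17. In that fit the second set gave 1683 for any difference, 327 for ILC1l against cNK, 282 and 626 for the lineages, 9 for TCRab+ILTC1 against ILC1l and 31 for the difference of lineages. Without 1 library the ranges were 491 to 2198, 41 to 436, 86 to 484, 4 to 159, 0 to 980, 0 to 600, 292 to 1500, 22 to 334, 8 to 868, 5 to 802, 0 to 315, 0 to 297 and 0 to 303. Without TCR-NK1.1+ cells the first set gave 623, and NK1.1+ CD8 against TCRb+CD8a-NK1.1+ gave 25. Without PD1+ CD8 cells the first set gave 454, and without cNK the second set gave 225, both added after seeing the data. Without TCRgd+NK1.1- cells ILC1l against cNK gave 357, the αβ lineage 179 and TCRab+ILTC1 against ILC1l 1.

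Replicate numbers were not taken as pairing the libraries: same-numbered libraries had deviations correlated at 0.0382 to 0.194 over 10 pairs of populations in the first set, 6 of them over 0.1, and at −0.0434 to 0.133 over 15 in the second, 2 of them over 0.1. With the replicate block, NK1.1+ CD8 against TCRb+CD8a+PD1-NK1.1- gave 421, PD1+ CD8 against the same 125 and NK1.1+ CD8 against TCR-NK1.1+ 387. The block ended the Adora3 call among the 6 populations (adjusted p = 0.0560) and for cNK against TCRab+ILTC1 (0.0683), and no other member call; it also ended that of P2rx4 for TCRgd+ILTC1 against TCRgd+NK1.1- (0.0603). It added calls for 8 printed member results. These were Cd38 among the 5 populations (adjusted p = 0.0205), for NK1.1+ CD8 against TCRb+CD8a+PD1-NK1.1- (0.0104), and for cNK against TCRb+CD8a+NK1.1- (0.0439) and TCRgd+NK1.1- (0.0407); Adora3 for NK1.1+ against PD1+ CD8 (0.0133); Entpd1 for PD1+ CD8 against TCRb+CD8a+PD1-NK1.1- (0.0382) and NK1.1+ CD8 against TCR-NK1.1+ (0.0328); and Adk for the last pair (0.0488).

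Depth limits Adora2b in all populations and Adora3 in cNK, where a few counts separate the libraries. Levels are compared between sets on 1 scale without a test. With 2 libraries per population, a fit that leaves 1 out assumes that the lone library varies like the others.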
